A study of Homo sapiens with 10 samples.

Results

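The comparison described here is between 2 PC-3 spheroid libraries of day 3, 1 from spheroids given topotecan in daily fractions (extended exposure, EE) and 1 from spheroids given it as a bolus on day 0 (conventional, CON). PC-3 is a human prostate cancer cell line, derived from a bone metastasis and grown here as 3D spheroids. The labels list 10 libraries, of which 7 were analysed, namely the EE and CON libraries of days 3 and 7 and untreated spheroids (CTRL) of days 0, 3 and 7, whereas 3 others, taken on day 1, were not analysed here. Each regimen and day has 1 library, so that no difference between EE and CON has a replicate check and none is given a p-value. The number of spheroids in a library is not given in the sources used here. The EE fraction was set so that the weekly total equals the bolus, and the sources do not settle whether the totals were also matched by day 3, so that exposure at collection is known here only by regimen and day. Medium was exchanged on day 3, and the sources do not say whether spheroids were collected before or after. Genes entered the comparison where the mean of the EE and CON libraries was at least 10 counts per 1000000 reads (CPM), which held for 10182 of 18144 listed genes.

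Topotecan is a camptothecin that traps topoisomerase I on DNA after it has nicked a strand. The trapped complexes become strand breaks when replication forks run into them, and they also stall RNA polymerase, in particular along long genes. A bolus gives a high exposure that declines, while repeated small fractions keep a low exposure over time, and the comparison asks how the RNA of the spheroids differed between these schedules at the same day.

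RNA of PC-3 markers was present in both libraries. VIM, a mesenchymal intermediate filament, lay at 982 CPM in CON and 1002 CPM in EE, and KRT8, an epithelial keratin, at 688 and 661 CPM. ANXA1 (annexin A1, a phospholipid-binding protein) had 154 CPM in CON and 108 CPM in EE, beside 109.7, 149.9 and 103 CPM in spheroids left untreated until days 0, 3 and 7. SNAI2 (Slug, a transcription factor of epithelial-mesenchymal transition, EMT) had 5.79 CPM in CON and 13.4 CPM in EE beside 8.67, 8.98 and 9.61 CPM untreated, so that its mean fell short of the filter. The CON value of SNAI2 was below all untreated libraries and the EE value above them. Summed leukocyte markers lay between 69.6 and 115 CPM in the untreated and day 3 libraries (115 in CON, 100.5 in EE), with PTPRC, the pan-leukocyte marker, at 0.0658 and 0.489 CPM. Of the 7 leukocyte markers only CD68 passed the filter. Summed fibroblast markers had 96.3 CPM in CON and 80.0 CPM in EE, and DCN, which defines fibroblasts, was at 0 in both. The 7 endothelial markers listed summed to 94.8 and 107.7 CPM, mostly from PECAM1 and KDR, while VWF was under 0.07 CPM. Luminal prostate markers summed to 890.5 and 783 CPM, mostly HOXB13. Neuroendocrine markers summed to 209 and 212 CPM, but only ENO2 of the 5 passed the filter, and SYP was under 1.6 CPM in both. The part of these markers in the differences below was not tested.

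A ratio of 2-fold or more in either direction was reached by few genes. It was at least 2-fold higher in EE for 23 genes (0.226% of those compared) and at least 2-fold lower for 11 (0.108%). The median log2 ratio of all genes was 0.01, and the middle 95% of genes lay between 0.712-fold and 1.47-fold. For comparison, untreated libraries differed by 2-fold or more in 180 genes upward and 16 downward between days 0 and 3 and in 73 and 89 between days 3 and 7. The EE and CON libraries thus had fewer 2-fold genes than either of these pairs. Against untreated spheroids of the same day, 148 genes were 2-fold higher and 41 lower in EE, and 46 higher and 24 lower in CON, which share the untreated library. For 2377 genes (23.3%) the gap between EE and CON was wider than the whole range of the untreated libraries on the log2 scale, and for 4402 to 4475 genes where any 1 untreated library was left out, an alternative chosen after seeing the data. Of the 34 genes past 2-fold, 20 had such a gap, 17 of them higher in EE. The plot of the ratio by level gives all genes. At the edge of the threshold, FCGBP was inside with 23.2 CPM in EE and 11.6 in CON (2.01-fold), LOC100126784 outside (1.98-fold), TALAM1 inside on the lower side (0.494-fold) and CCNL2 outside (0.505-fold). At the edge of the filter, ERI2 was inside with a mean of 10.002 CPM and C12orf4 outside with 9.99 CPM.

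**Figure D1:**
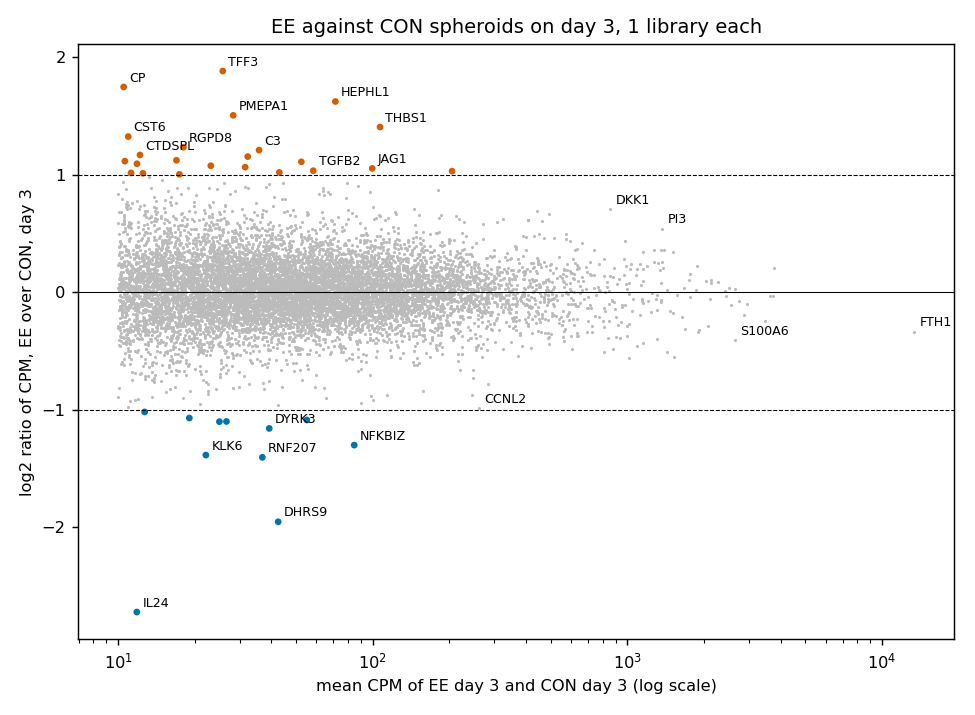
Log2 ratio of CPM in EE over CON on day 3 (vertical) against the mean CPM of both libraries (horizontal, log scale), 1 point per gene for 10182 genes. Orange points are the 23 genes at least 2-fold higher in EE, blue points the 11 at least 2-fold lower, and dashed lines mark 2-fold; most highly expressed genes lie near 0.

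The gene with the highest ratio was TFF3 (trefoil factor, a secreted peptide of mucosal epithelia, chr21:42311667-42315410 on hg38). It had 6.06, 7.24 and 7.67 CPM in untreated spheroids of days 0, 3 and 7, 10.99 CPM in CON and 40.5 CPM in EE, a ratio of 3.69 with a 95% counting interval of 3.12 to 4.38. The interval is an exact conditional binomial one on the reads behind the CPM and covers counting error only. Both treated libraries lay above all untreated ones, and EE was also the higher on day 7, with 76.9 against 27.5 CPM. CP (ceruloplasmin, chr3:149162417-149221830) and HEPHL1 (zyklopen, chr11:94021354-94114209) belong to the same family of copper-dependent ferroxidases, which oxidise iron for its export, and they had the next highest ratios. CP had 1.09 to 2.98 CPM untreated, 4.82 CPM in CON and 16.2 CPM in EE (3.36-fold, 2.62 to 4.40). HEPHL1 had 9.12 to 12.3 CPM untreated, 34.9 CPM in CON and 108 CPM in EE (3.08-fold, 2.80 to 3.39). For both ferroxidases, as for TFF3, the order was untreated, then CON, then EE, and the EE over CON ratio of day 7 was again over 2-fold (2.19 and 3.09). FTH1, the heavy chain of ferritin that stores iron, went the other way and had the largest loss in CPM of all genes, from 14919.9 in CON to 11820.3 in EE (0.792-fold), with 10093 to 13436 CPM untreated.

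Other secreted and surface proteins stood among the 15 highest ratios. C3, the central complement component, had 12.8 to 13.1 CPM untreated, 21.6 CPM in CON and 49.9 CPM in EE (2.31-fold, 2.04 to 2.62). MUC16, a very large mucin known as CA125, had 4.97 to 13.6 CPM untreated, 20.002 CPM in CON and 44.5 CPM in EE (2.23-fold, 1.96 to 2.54). In both of these genes CON was above the untreated range and EE higher again, but on day 7 the ratio was 0.864 for C3 and 0.981 for MUC16. CST6, a cystatin that inhibits cysteine proteases, differed in another way, because its EE value of 15.7 CPM was within the untreated range of 9.40 to 18.5 CPM and its CON value of 6.25 CPM below it (2.51-fold). CSPG4 (NG2, a surface proteoglycan) had 10.7 CPM in CON, level with untreated day 7, and 23.2 CPM in EE, and SPOCK3, an extracellular proteoglycan, had 6.71 and 14.5 CPM. Among genes of cell shape and growth, NAV2 (neuron navigator, chr11:19345236-20121602) had 33.2 CPM in CON and 71.6 in EE, NEDD9, a docking protein of focal adhesions, 14.9 and 31.4, and CTDSPL, a phosphatase, 7.501 and 16.9. All 3 lay above the untreated range in EE. KCNQ1OT1, a long nuclear RNA antisense to KCNQ1, had 7.57 CPM in CON and 16.1 in EE, but 16.6 in untreated day 7. RGPD8 is a member of a family of near-identical copies and its listed span of chr2:109794274-112433646 takes in many genes, so its ratio of 2.35 is uncertain. Beyond these 15, the genes past 2-fold were ZNF699, JAG1, PODXL, TGFB2, ATF3, CACNG4, FFAR4 and FCGBP, which PODXL led in level with 135 CPM in CON and 274.9 CPM in EE.

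**Figure D2:**
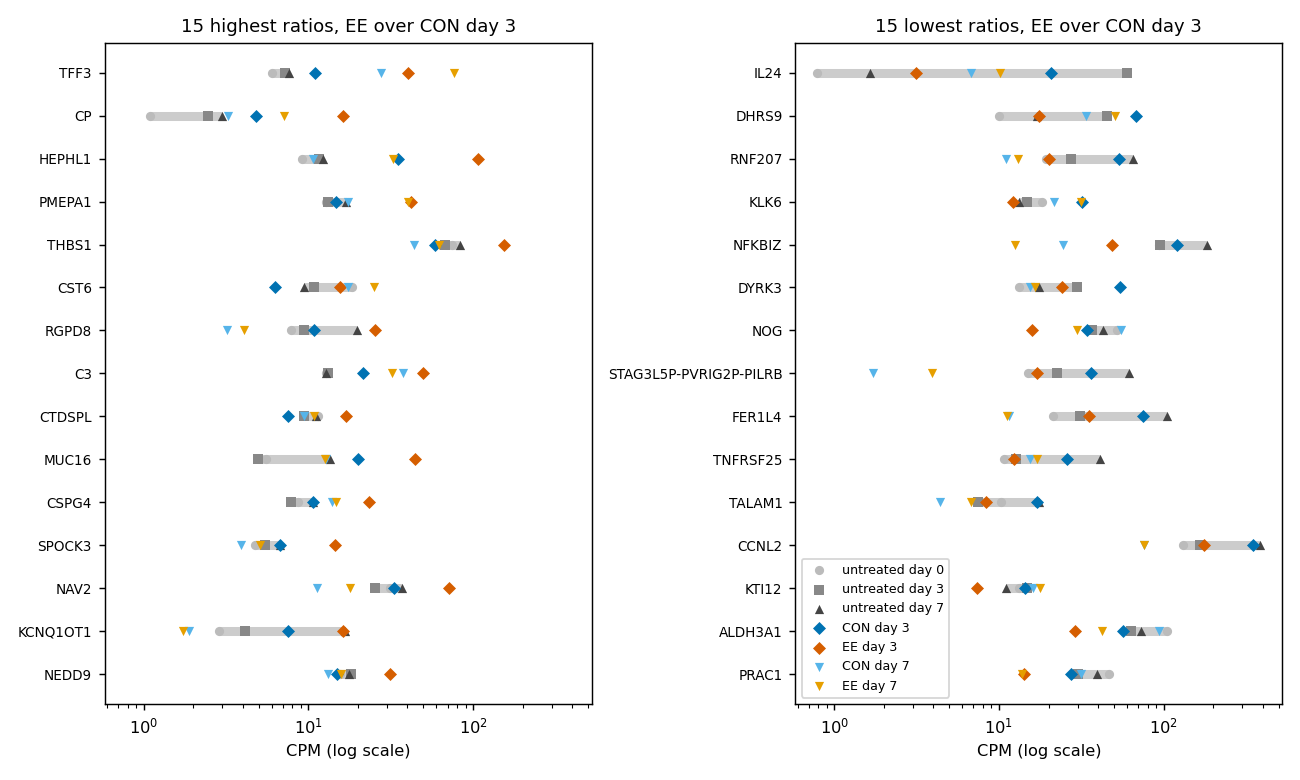
CPM (log scale) of the 15 genes at each end of the EE over CON ratio of day 3, highest on the left and lowest on the right, 1 symbol per library and a grey bar over the range of the untreated libraries. In the left panel the EE day 3 symbol lies right of the bar for 13 of the 15 genes, all but CST6 and KCNQ1OT1, while in the right panel EE lies inside the bar for 8 of the 11 genes past 2-fold.

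Many genes of transforming growth factor beta (TGF-beta) signalling were higher in EE. In this pathway, ligands are held latent in the matrix until freed, bind paired receptor kinases and send SMAD proteins to the nucleus, where they raise matrix genes and feedback inhibitors. Of the 20 pathway genes measured, 16 were higher in EE, 9 of them by 1.2-fold or more against a background of 14.8%, and none was lower by that much against 11.7%. Their median log2 ratio was 0.23, and 0.08 over the 11 genes left by a filter of 50 CPM. Among ligands, TGFB2 had 38.3 CPM in CON and 78.4 CPM in EE (2.05-fold, 1.86 to 2.25), with 31.9, 72.2 and 41.9 CPM untreated, while TGFB1 had 184 and 157 CPM (0.850-fold) and INHBA, an activin subunit, a log2 ratio of 0.00. THBS1 (thrombospondin 1, a matrix protein that can release latent TGF-beta and is counted with the matrix genes, chr15:39581079-39599467) had 58.5 CPM in CON and 155 CPM in EE (2.65-fold, 2.46 to 2.86), beside 68.0 to 82.8 CPM untreated, so that CON was below and EE above every untreated library. LTBP2, a latent TGF-beta binding protein, had 25.7 and 43.6 CPM, and the coreceptor TGFBR3 10.001 and 15.6 CPM. The widest ratio was that of PMEPA1 (chr20:57648392-57711537), a target that feeds back on SMADs, with 12.7 to 17.0 CPM untreated, 14.7 CPM in CON and 41.9 CPM in EE (2.84-fold, 2.45 to 3.30). It stayed apart on day 7, with 17.5 CPM in CON and 40.5 CPM in EE. SKIL, another feedback repressor, had 14.6 and 25.9 CPM. EE was above the untreated range for 15 of the 20 genes and CON for 9, against 36.2% and 30.2% of all genes. The pathway's median ratio on day 7 was 0.04 on the log2 scale, with 12 of 20 genes higher.

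Matrix, adhesion and Notch genes went in both directions. FN1, fibronectin, had 336 CPM in CON and 544 CPM in EE (1.62-fold, 1.57 to 1.67), beside 360.4 to 530.4 CPM untreated, and COL6A3, a chain of collagen VI, 44.7 and 82.6 CPM (1.85-fold). LAMA3, a chain of laminin-332, had 359 CPM in CON and 500.3 CPM in EE. COL1A1 was lower in EE (0.715-fold). Of the 30 mesenchymal and matrix genes 11 were higher by 1.2-fold (36.7% against 14.8% of all genes) and 2 lower (6.67% against 11.7%). The median of the 30 was 0.08, and -0.01 over the 21 genes left by a filter of 50 CPM. Of 22 laminin and integrin genes 8 were higher by 1.2-fold (36.4%) and 2 lower (9.09%), namely ITGB4 and LAMA5 (a laminin chain, 0.785-fold). The median of the 22 was 0.15, or 0.07 with the span trend subtracted. JAG1, a Notch ligand, had 64.7 CPM in CON and 134 CPM in EE (2.08-fold, 1.93 to 2.23) with 68.4 to 93.6 CPM untreated, and NOTCH2, a receptor, had 149 and 214 CPM. The receptor NOTCH3 (0.925-fold) and the Notch targets HES1 (0.859-fold) and HEY1 (0.791-fold) were lower in EE. DKK1, a secreted Wnt antagonist, gained 411 CPM between CON (651 CPM) and EE (1062 CPM), beside 546, 997 and 558 CPM untreated. Over the 14 Wnt and Notch genes the median log2 ratio was 0.23, and 6 passed 1.2-fold upward (42.9%) and 1 downward (7.14%). Of 16 targets and partners of YAP and TEAD, the growth regulators of the Hippo pathway, 15 were higher in EE and 8 passed 1.2-fold (50%). The median of the 16 was 0.27, and LATS2 and CRIM1 were each 1.37-fold higher. The textbook targets CCN1 and CCN2 were not part of this shift. CCN2 had 34.2 CPM in CON and 34.3 CPM in EE beside 79.3 to 122.7 CPM untreated, and CCN1 had 194 and 192 CPM beside 266 to 301 CPM. EGFR, the epidermal growth factor receptor, had 182 CPM in CON and 276 CPM in EE, and EE alone was above the untreated 157 to 213 CPM.

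On the lower side, IL24 (a cytokine of the interleukin 10 family, chr1:206897443-206904140) had the widest difference of all genes. Its CPM were 0.791, 60.2 and 1.66 in untreated spheroids of days 0, 3 and 7, 20.6 in CON and 3.12 in EE, a ratio of 0.152 (0.115 to 0.197). The untreated values spanned more than the gap between the regimens, and both treated libraries lay inside the untreated range. DHRS9, a dehydrogenase that acts on retinol, had 10.1, 45.1 and 17.0 CPM untreated, 67.6 CPM in CON and 17.4 CPM in EE (0.258-fold, 0.229 to 0.290). As for IL24, the untreated level was highest on day 3, and EE was closer to untreated days 0 and 7 than to day 3. DYRK3, a kinase, had the same order with 54.2 CPM in CON, 24.2 CPM in EE and 13.2, 29.8 and 17.5 CPM untreated.

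KLK6, NFKBIZ and NOG were the 3 genes past 2-fold on the lower side whose gap was wider than the untreated range. KLK6, a secreted serine protease of the kallikrein family, had 13.3 to 18.2 CPM untreated, 32.0 CPM in CON and 12.2 CPM in EE (0.383-fold, 0.329 to 0.444), so that CON alone was high. NFKBIZ, an atypical inhibitor of the NF-kB family that acts in the nucleus, had 93.4, 94.4 and 184 CPM untreated, 120.3 CPM in CON and 48.8 CPM in EE (0.406-fold, 0.376 to 0.438), so that EE alone was low. NOG (noggin, a secreted antagonist of bone morphogenetic proteins) had 36.6 to 51.8 CPM untreated, 34.1 CPM in CON and 15.9 CPM in EE (0.466-fold, 0.406 to 0.534). ALDH3A1, an aldehyde dehydrogenase, and PRAC1, a small nuclear protein of prostate and colon, came close to 2-fold with 56.3 against 28.9 CPM and 27.5 against 14.2 CPM, and in both EE was below every untreated library. For NFKBIZ, NOG, ALDH3A1 and PRAC1 the ratio of day 7 was lower again, at 0.508, 0.535, 0.448 and 0.439.

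A further set of the lowest ratios shared another order of libraries. CCNL2, a cyclin that takes part in splicing, had 132, 165 and 386 CPM in untreated days 0, 3 and 7, 347 CPM in CON and 175 CPM in EE (0.505-fold, 0.484 to 0.526). RNF207, a RING finger protein, had 19.3, 27.4 and 65.4 CPM untreated, 53.5 CPM in CON and 20.2 CPM in EE, and FER1L4, a pseudogene transcript, 21.2, 31.2 and 105 CPM untreated, 74.9 CPM in CON and 35.2 CPM in EE. TNFRSF25, a death receptor, had 25.8 CPM in CON and 12.3 CPM in EE, with 41.2 CPM in untreated day 7. In each of these genes untreated day 7 was the highest library and CON of day 3 came next. The readthrough locus STAG3L5P-PVRIG2P-PILRB had the same order (36.3 CPM in CON, 16.9 CPM in EE, 61.3 CPM in untreated day 7) and shares reads with the genes it spans. TALAM1 lies antisense to MALAT1, and the sources used here do not state that strand was kept, so reads of the pair cannot be told apart. TALAM1 had 17.0 CPM in CON and 8.40 CPM in EE, and MALAT1 was 1.57-fold higher in EE. KTI12, a protein of transfer RNA modification, had 14.5 CPM in CON and 7.37 CPM in EE, and EE was below the untreated 10.99 to 14.7 CPM. Neighbours on the other strand also overlap IL24 (FCMR), RNF207 (ICMT), CP (HPS3), PMEPA1 (NKILA), TGFB2 (TGFB2-AS1) and NAV2 (NAV2-AS2), so that their reads may be split or shared.

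Genes of mitosis were higher in EE. These genes build and police the spindle: cyclin B and its kinases start mitosis, kinetochore proteins and kinesins attach and move chromosomes, condensin and topoisomerase II compact and untangle them, and the anaphase-promoting complex ends the process. Of 34 spindle and kinetochore genes measured, 31 were higher, and the median log2 ratio was 0.45. Past 1.2-fold were 28 upward (82.4% against 14.8% of all genes) and 1 downward (2.94% against 11.7%). The 16 mitotic kinase and entry genes had a median of 0.28, but -0.12 over the 4 left by a filter of 50 CPM. Of the 16, 9 passed 1.2-fold upward (56.25%) and 2 downward (12.5%). The 10 anaphase genes had a median of 0.26, and the 10 condensin and topoisomerase II genes 0.21. All 10 condensin and topoisomerase II genes were higher, 4 of them by 1.2-fold (40%), and 7 were higher with the span trend subtracted. Over the 4 lists 61 of 70 genes were higher, and 50 had a counting interval above 1, beside 2999 of the 10182 genes compared. Their median was 0.38, and 0.23 over the 26 genes left by the 50 CPM filter. No gene of the 4 lists reached 2-fold.

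KIF14, a kinesin of cell division, had the widest ratio of the group, with 17.9 CPM in CON and 34.0 CPM in EE (1.90-fold, 1.65 to 2.19) and 27.4, 20.5 and 36.1 CPM untreated. TOP2A, topoisomerase II alpha, had 47.6 CPM in CON and 85.8 CPM in EE (1.80-fold, 1.66 to 1.97), beside 91.2, 51.9 and 107 CPM untreated. CCNB1, cyclin B1, had 33.1 CPM in CON and 57.4 CPM in EE (1.73-fold, 1.56 to 1.93), beside 81.0, 29.7 and 71.2 CPM untreated. In all 3 genes the untreated library of day 3 was the lowest untreated one, CON lay near it, and EE was higher but still inside the untreated range. CENPF, a kinetochore protein, had 57.4 and 100.2 CPM, DLGAP5, a spindle protein, 32.4 and 56.01 CPM, KIF20A, a kinesin of the midzone, 15.9 and 29.5 CPM, and AURKA, the centrosomal Aurora kinase, 35.4 and 57.0 CPM. MKI67, which encodes the proliferation antigen Ki-67, had 87.8 CPM in CON and 128 CPM in EE, beside 175, 103 and 192 CPM untreated. CDC25B, the phosphatase that activates the mitotic kinase, was among the exceptions with 117 and 87.0 CPM (0.742-fold). CON was below the untreated range in 45 of the 70 genes, against 22.5% of all genes, and EE in 16, against 26.7%, so that the EE count is near the share of all genes. The values cannot tell more cells in mitosis from more RNA per cell.

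Many of these genes are known to share 2 promoter elements, the cell cycle homology region (CHR, often TTTGAA, with TTTAAA as a variant) that DREAM and MuvB complexes bind, and CCAAT boxes bound by NF-Y. In RefSeq promoters of GRCh38.p14 (250 bases before to 50 after the start, both strands searched), found for 61 of the 70 genes, TTTGAA occurred in 63.9% against 9.11% of the 8256 promoters matched among all genes compared, TTTAAA in 27.9% against 6.96%, and CCAAT in 63.9% against 37.2%. In the promoters of 30 DNA replication genes TTTGAA occurred in 3.33%. Below are the 110 bases before the start for the named mitosis genes with the highest ratios among those with both elements in this stretch and the stretch outside the listed gene, 5′ to 3′ on the strand of the gene. Capitals mark the CCAAT box and both CHR forms on either strand, which may overlap, and a match describes letters, not a site in use.
KIF20A (chr5:138179002-138179111, + strand): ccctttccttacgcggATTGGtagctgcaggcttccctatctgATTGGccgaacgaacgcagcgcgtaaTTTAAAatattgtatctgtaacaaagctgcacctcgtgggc
DLGAP5 (chr14:55191586-55191695, - strand): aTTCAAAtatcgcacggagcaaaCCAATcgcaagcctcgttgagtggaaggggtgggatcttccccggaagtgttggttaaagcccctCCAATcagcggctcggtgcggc
CDC20 (chr1:43358871-43358980, + strand): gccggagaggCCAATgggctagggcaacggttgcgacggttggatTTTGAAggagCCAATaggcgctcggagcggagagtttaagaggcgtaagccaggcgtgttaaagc
PTTG1 (chr5:160421745-160421854, + strand): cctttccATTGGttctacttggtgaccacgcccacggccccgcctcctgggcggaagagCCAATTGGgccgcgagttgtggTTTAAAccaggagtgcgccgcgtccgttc
CDC20, the activator of the anaphase-promoting complex, had 36.6 CPM in CON and 57.6 CPM in EE, and PTTG1, securin, which the complex removes, 20.2 and 29.5 CPM. Within the 61 mitosis genes the median log2 ratio was 0.42 for those with TTTGAA and 0.35 for those without, and over all genes compared it was 0.06 and 0.01.

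The genes that copy DNA did not follow the mitosis genes. Of 36 replication genes measured, 14 were higher and 22 lower in EE, with a median log2 ratio of -0.03. Past 1.2-fold were 2 upward (5.56% against 14.8% of all genes) and 1 downward (2.78% against 11.7%). MCM6, a subunit of the replicative helicase, had 43.9 CPM in CON and 56.1 CPM in EE, and LIG1, the ligase of replication, 27.4 and 21.8 CPM. Both regimens lay below untreated day 3 for this list, with medians of -0.39 (CON) and -0.40 (EE) on the log2 scale. Topotecan's target, TOP1, had 205 CPM in CON and 239 CPM in EE, beside 193 to 228 CPM untreated. Of the 14 genes of topoisomerase I and its repair, 2 passed 1.2-fold upward and 4 downward. These were 14.3% and 28.6%, against 14.8% and 11.7% of all genes. The widest ratio among the 14 was that of TOP3B with 31.1 and 19.3 CPM (0.619-fold). Among 17 damage response and p53 target genes, 1 was higher (5.88%) and 3 lower (17.6%) by 1.2-fold. CDKN1A, the cell cycle inhibitor p21, had 98.96 CPM in CON and 102 CPM in EE. The lowest of the 17 was BTG1, an antiproliferative gene, with 309 and 186 CPM (0.601-fold). PC-3 is known to lack functional p53. The 27 genes of homologous recombination and Fanconi anaemia had a median of 0.06, which was -0.05 with a trend of the ratio with gene span subtracted, and 4 passed 1.2-fold upward (14.8%, the same as the share of all genes) and 1 downward.

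Components of the ribosome were lower in EE as a group, each by a small amount. Of 83 cytosolic ribosomal protein genes, 79 were lower, 37 of them by 1.2-fold or more (44.6% against 11.7% of all genes). The median log2 ratio was -0.25. Together the listed ribosomal protein genes held 4.90%, 4.12% and 3.89% of all CPM in untreated days 0, 3 and 7, 3.59% in CON and 3.04% in EE. EE was thus the lowest of these 5 libraries, and it was below the untreated range for 75 of the 83 genes (26.7% of all genes), CON for 47 (22.5% of all genes). RPL9, of the large subunit, had 53.4 CPM in CON and 33.8 CPM in EE (0.633-fold), and RPS16, of the small subunit, 487 and 351 CPM (0.721-fold). Ribosomal protein genes have many pseudogenes that can take reads. In RefSeq, 66.7% of the 66 ribosomal protein genes matched start with a C followed by at least 4 pyrimidines, the start of a TOP motif through which mTOR controls translation, against 5.80% of the 8256 matched genes. Host transcripts of small nucleolar RNAs (snoRNA), which also tend to have such starts, were lower in 12 of 13 cases, with a median of -0.40. Of the 13, 8 passed 1.2-fold downward (61.5%). SNHG1 had 41.3 CPM in CON and 24.1 CPM in EE (0.583-fold), with 21.7, 64.6 and 36.3 CPM untreated. Factors that assemble ribosomes did not share the direction, since 16 of 25 were higher, such as NCL (nucleolin) with 484 CPM in CON and 661 CPM in EE. Past 1.2-fold were 4 of the 25 upward (16%, near the 14.8% of all genes) and 1 downward (4% against 11.7%). Of 77 nuclear genes of oxidative phosphorylation 69 were lower (median -0.13), but 12 by 1.2-fold (15.6% against 11.7% of all genes), the lowest being NDUFB1 at 0.610-fold. Of 75 mitochondrial ribosomal proteins 54 were lower (median -0.10), 11 of them by 1.2-fold (14.7%), so that both shares lay near that of all genes. With a smooth trend of the ratio with gene span subtracted, the medians were -0.08 and -0.03.

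**Figure D3:**
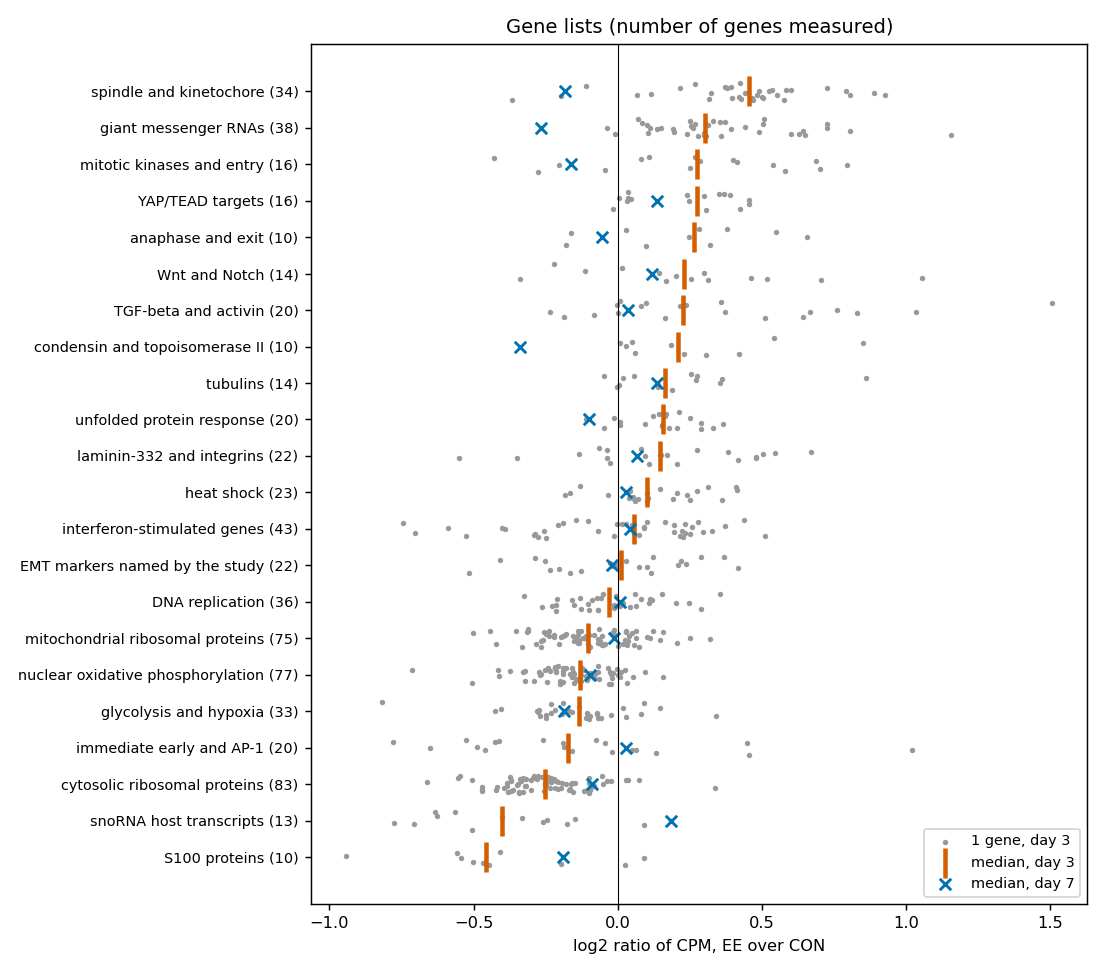
Log2 ratio of CPM in EE over CON on day 3 for each measured gene of 22 lists (grey points), with the day 3 median (orange bar) and the day 7 median (blue cross), the number of genes in brackets. Spindle genes lie furthest right (median 0.45) and S100 genes furthest left (-0.46), and the day 7 medians of the mitosis lists lie left of 0.

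S100 proteins, small calcium-binding proteins, had the lowest median of the lists drawn. Of 10 measured, 8 were lower and 7 by 1.2-fold or more (70% against 11.7% of all genes), with a median log2 ratio of -0.46. S100A9, a subunit of calprotectin, had 118 CPM in CON and 61.3 CPM in EE (0.521-fold, 0.485 to 0.559), beside 58.4 to 86.9 CPM untreated, so that CON was the high one. S100A6, one of the most abundant RNAs, had 3007 CPM in CON and 2265 CPM in EE, beside 3518, 3074 and 2252 CPM untreated. Among keratins, KRT15 had 316 CPM in CON and 173 CPM in EE with 151 to 179 CPM untreated, and KRT19 had 1679 and 1177 CPM with 1509 to 1693 CPM untreated, so that CON was high for the first and EE low for the second. ITGB4, the integrin of hemidesmosomes, had 1813 and 1238 CPM. The other large losses in CPM were FTH1 (given above) and NDRG1, a stress-responsive gene, with 3749 and 3158 CPM. The 5 largest gains were ACTB (beta-actin, 543 CPM), PI3 (elafin, a protease inhibitor, 504 CPM), DKK1 (411 CPM), APP (the amyloid precursor protein, 359.6 CPM) and TUBA1B (a tubulin, 345 CPM). Of 14 tubulins 12 were higher in EE, with a median of 0.16, and 5 passed 1.2-fold upward (35.7% against 14.8% of all genes).

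A list of EMT markers that the study names, without those it names for single clusters, had no common direction. Of 22 measured, 11 were higher and 11 lower, with a median log2 ratio of 0.01. Past 1.2-fold were 3 each way (13.6%, against 14.8% of all genes upward and 11.7% downward). As a list that the study chose on these samples it is not independent evidence. VIM differed by 1.02-fold, FSCN1, an actin bundler tied to taxane resistance, by 0.820-fold, CD55, a complement regulator, by 0.839-fold and HAS3, a hyaluronan synthase, by 0.869-fold, while LAMB3, a laminin-332 chain, was 1.34-fold higher. CD55 had 212 to 282 CPM untreated, 233 CPM in CON and 195 CPM in EE, and HAS3 had 689.9 to 923 CPM untreated, 799 CPM in CON and 694 CPM in EE. ANXA1 differed by 0.699-fold and SNAI2 by 2.32-fold (1.82 to 2.98). Of EMT transcription factors, ZEB1 had 17.0 CPM in CON and 28.3 CPM in EE, and TWIST1 35.0 and 32.1 CPM. Of the 7 in that list that passed the filter, 2 were higher and 5 lower, with a median log2 ratio of -0.13. A second list holds the EMT and drug resistance genes that the study names for single clusters. Of 12 measured, 6 were higher (50%) and 3 lower (25%) by 1.2-fold, and this list too is not independent evidence. In it FN1, ASPM, CDH11 (a mesenchymal cadherin, log2 ratio 0.34), EPCAM (an epithelial adhesion protein, 0.20) and CDH1 (E-cadherin, 0.15) were higher, and S100A9 and CLDN7 (a claudin of tight junctions, -0.31) were lower. CD44 and KLF4, the stemness markers measured, differed by 1.09-fold and 0.878-fold.

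Stress and immune lists differed little in the median, but some held a larger share of genes past 1.2-fold than all genes did, and single genes differed more. Of 20 unfolded protein response genes 17 were higher (median 0.16), among them HSPA5, the main chaperone of the endoplasmic reticulum, with 728 CPM in CON and 888 CPM in EE, and of 23 heat shock genes 19 were higher (median 0.10). Only 4 of the 20 (20%) and 5 of the 23 (21.7%) passed 1.2-fold upward, against 14.8% of all genes. Of 20 immediate early and AP-1 genes 14 were lower (median -0.17), such as DUSP6, a phosphatase induced by ERK, with 359 and 209 CPM and 382 to 469 CPM untreated. By 1.2-fold 7 of the 20 were lower (35% against 11.7% of all genes) and 3 higher (15% against 14.8%). ATF3, MYC (1.37-fold) and NR4A1 (1.36-fold), transcription factors of that list, passed 1.2-fold upward. ATF3, which stress induces, had the widest ratio of them at 28.4 and 57.5 CPM (2.03-fold) with 15.1, 124 and 16.6 CPM untreated. In the NF-kB list, whose median was 0.04, BIRC3, an inhibitor of apoptosis, had 60.6 CPM in CON and 114 CPM in EE (1.87-fold), and NFKBIZ was past 2-fold the other way. Of the 15 NF-kB genes 5 passed 1.2-fold upward (33.3%) and 2 downward (13.3%). Interferon-stimulated genes had a median of 0.06, with 6 of 43 past 1.2-fold upward (13.95% against 14.8% of all genes) and 9 downward (20.9% against 11.7%). HLA-B had 505 CPM in CON and 683 CPM in EE, above the untreated 77.2 to 228 CPM in both, while STAT2, a transcription factor of the interferon response, had 259 and 172 CPM. Chemokines and cytokines had a median of 0.11, and CXCL8 had 228 and 312 CPM beside 170.3, 1600.3 and 174 CPM untreated. Of the 11 measured, 5 passed 1.2-fold upward (45.5% against 14.8% of all genes) and 1 downward (9.09%). Glycolysis and hypoxia genes were lower in 27 of 33 cases (median -0.13), 7 of them by 1.2-fold (21.2% against 11.7% of all genes). PFKFB4, a regulator of glycolysis, had 195 and 147 CPM.
Cholesterol synthesis had a median of -0.02, and the medians of the proteasome, lysosome, BCL2, ABC transporter, splicing and Polycomb lists all lay between -0.08 and 0.05, where SRSF5, a splicing factor with 303 and 191 CPM, had the widest ratio of their measured genes. NRF2 targets had a median of 0.16, metallothioneins (2 genes) 0.48, histones -0.15 and transfer RNA synthetases -0.04. Of the 22 NRF2 targets 7 passed 1.2-fold upward (31.8% against 14.8% of all genes) and 2 downward (9.09% against 11.7%).

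Each regimen can also be set against untreated spheroids of the same day. Over the 70 mitosis genes, the median log2 level relative to untreated day 3 was -0.17 in CON and 0.19 in EE, while the untreated libraries of days 0 and 7 stood at 0.22 and 0.37. For the ribosomal proteins it was -0.20 in CON and -0.44 in EE, with all 83 genes lower in EE. For TGF-beta genes it was 0.15 and 0.44, and for S100 proteins -0.04 and -0.38. In mitosis the regimens thus lay on opposite sides of untreated day 3, in ribosomal proteins and TGF-beta genes on the same side with EE further away, and for S100 proteins CON lay close to untreated day 3, with 4 genes higher and 6 lower. Both ratios share the untreated library.

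**Figure D4:**
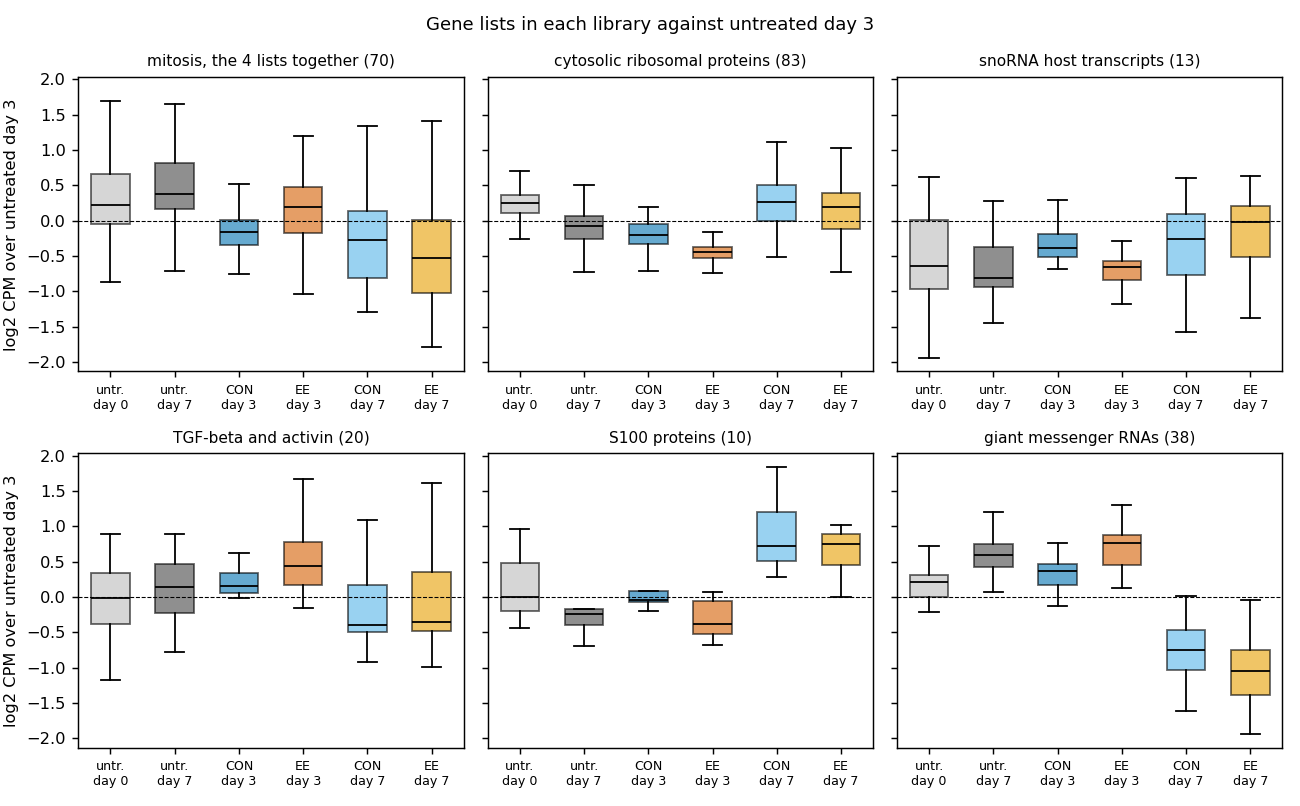
Log2 CPM relative to untreated day 3 for the measured genes of 6 lists in the other 6 libraries, with boxes from the lower to the upper quartile, a line at the median, whiskers to the furthest gene within 1.5 box lengths outlying genes not drawn and the number of genes in brackets. In mitosis CON day 3 lies below and EE day 3 above the dashed line, and in ribosomal proteins EE day 3 is the lowest box.

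The EE and CON libraries of day 7 did not enter the day 3 ratio and its threshold. Of the 23 genes at least 2-fold higher in EE on day 3, 20 were higher in EE on day 7 (87.0%, where 52.2% of all genes compared had a ratio above 1), and 5 were again past 2-fold. Of the 11 genes at least 2-fold lower, 3 were lower on day 7 (27.3%, where 47.8% of all genes had a ratio below 1), namely NFKBIZ, NOG and FER1L4, the last at 0.979. IL24 had 6.78 CPM in CON and 10.1 CPM in EE on day 7, and DHRS9 33.7 and 50.3 CPM, so that both had the opposite order. Past 1.5-fold, 158 of 222 higher genes and 84 of 141 lower genes kept the direction. At 2-fold with a filter of 5 CPM, 56.5% of 23 lower genes and 82.1% of 39 higher genes did so. The mitosis lists did not keep the direction, as 11 of 70 genes were higher in EE on day 7 and the median log2 ratio was -0.18. TOP2A then had 44.1 CPM in CON and 31.9 CPM in EE, and CCNB1 62.2 and 56.4 CPM. Ribosomal proteins had a median of -0.09 on day 7, with 18 of 83 genes higher. The snoRNA host transcripts did not keep the direction, as 10 of 13 were higher in EE on day 7 and the median was 0.19. The unfolded protein response genes had a median of -0.10 on day 7, with 8 higher and 12 lower.

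The ratio also moved with the length of a gene. Across the 10182 genes, the rank correlation of the log2 ratio with gene span was 0.34 and with the length of the canonical transcript 0.40, as a description over genes that share libraries and base composition. With the share of G and C bases (GC content) in that transcript it was -0.32. The GC values of the other pairs were nearer 0. They were -0.08, -0.04 and -0.14 for untreated day 3 over day 0, day 7 over day 3 and day 7 over day 0. Over untreated day 3 they were -0.15 for EE and 0.09 for CON, and EE over CON on day 7 had 0.06. In the shortest of 5 equal bins by span (median 5.39 kb) the median log2 ratio was -0.09 and 7.02% were higher by 1.2-fold, and in the longest (median 149.8 kb) it was 0.14 and 28.4% were higher. Like relations with span were found for untreated day 7 over day 3 (0.38) and over day 0 (0.33), and for EE (0.45) and CON (0.29) over untreated day 3, while EE over CON on day 7 (-0.05) and untreated day 3 over day 0 (-0.07) had little relation. Very long messenger RNAs were higher in 36 of 38 cases (median 0.30), 23 of them by 1.2-fold (60.5% against 14.8% of all genes), and they include CENPF, CENPE and ASPM of the spindle list. Short genes are common among the groups that were lower, with a median span of 5.04 kb for ribosomal proteins, 4.85 kb for snoRNA hosts and 3.90 kb for S100 proteins, against 29.6 kb for the mitosis genes. After a smooth trend with span was subtracted, the median was 0.36 for mitosis, 0.21 for TGF-beta, -0.17 for ribosomal proteins, -0.41 for snoRNA hosts and -0.35 for S100 proteins, while all genes stood at -0.00. Of the 83 ribosomal protein genes 20 were then lower by 1.2-fold, in place of 37, beside 1160 of all 10182 genes. Very long messenger RNAs then had a median of 0.20, and 13 of the 38 were higher by 1.2-fold, in place of 23, beside 1221 of all genes. The part of RNA fragmentation or of library preparation in the relations with length and GC content was not tested.

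**Figure D5:**
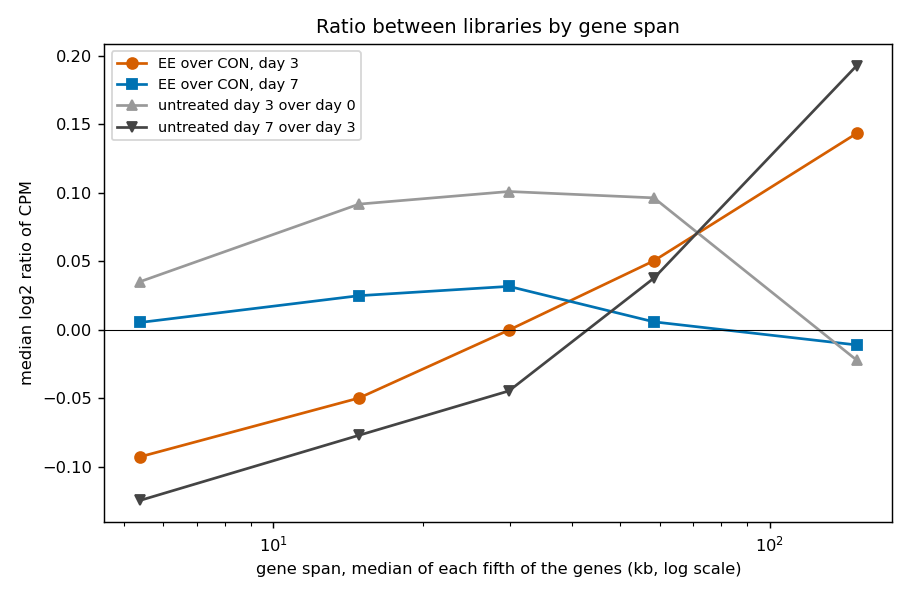
Median log2 ratio of CPM between libraries (vertical) for 5 equal bins of the 10182 genes by gene span (horizontal, median span of the bin in kb, log scale). EE over CON on day 3 runs from -0.09 to 0.14 and untreated day 7 over day 3 from -0.12 to 0.19, while EE over CON on day 7 and untreated day 3 over day 0 show no steady trend.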

How the data were processed

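RNA of PC-3 spheroids was sequenced by the authors (Illumina TruSeq v2, paired ends). According to the methods and the submitters' processing notes, reads were mapped to hg38 with STAR and handled in Partek Flow, and the authors deposited CPM for 18144 genes. An offset of 0.0001 CPM was found in every value and subtracted. Software versions and the strand setting are not given in the sources used here. Libraries were assigned to regimens by the identifier in their labels.

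From these CPM the log2 ratio EE over CON was computed for genes with a mean of at least 10 CPM. Low values lie on steps of 1 read, which gave depths of 15.0 to 22.5 times 1000000 reads (15.2 for CON and 22.5 for EE on day 3). As 88.7% to 90.0% of values under 20 reads were whole within 0.02 read, and not nearly all, no count model was run. Intervals are exact 95% conditional binomial intervals on rounded reads. A value of 0 allows up to 3 reads (0.197 CPM in CON, 0.133 CPM in EE). With 1 library per regimen and day, no test was made. A gene was called at 2-fold or more, and lists were described at 1.2-fold.

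Members, the 55 gene lists and the rules were chosen with earlier results of these data known. Named genes are the 15 highest and 15 lowest ratios, the 5 largest gains and losses in CPM, SNAI2, ANXA1, CD55, HAS3, up to 6 members per list with the widest ratios, and defining members for their level. Genes named beyond these, such as ZNF699, PODXL, CACNG4, FFAR4, FCGBP, MALAT1 and members of a list outside its 6 widest, were chosen after their values were seen, as was the joining of the 4 mitosis lists. Mitochondrially encoded RNAs were not analysed here. Transcript lengths and GC contents were those of GENCODE 44, which held 98.5% of the genes compared. Alternatives were TMM and median-of-ratios scaling, a pseudocount, other filters and thresholds, and a smooth span trend (LOWESS), run in Python 3.11.15 with numpy 2.4.6, pandas 2.3.3, scipy 1.17.1 and statsmodels 0.14.6. The ratio, intervals and scalings were tested on simulated data.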

Additional observations from a re-analysis of the deposited data

Results flagged for a closer look

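The EE over CON ratio had opposite directions on days 3 and 7 in the following groups and genes, and as each day has 1 library per regimen, the difference between days was not tested. As medians of log2 ratios, first for day 3 and then for day 7, the 70 mitosis genes had 0.38 and -0.18. The values were 0.26 and -0.05 for the anaphase genes, 0.21 and -0.34 for condensin and topoisomerase II, and 0.30 and -0.26 for very long messenger RNAs. Among the genes with the lowest ratios of day 3, the log2 ratios of the same days were -2.72 and 0.58 for IL24, -1.95 and 0.58 for DHRS9, -1.39 and 0.54 for KLK6, -1.10 and 1.204 for STAG3L5P-PVRIG2P-PILRB, and -1.02 and 0.62 for TALAM1.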

How the results depend on the processing

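No paired analysis was possible because each regimen and day has 1 library and no replicate numbers to pair. The counts of genes at least 2-fold higher and lower in EE (23 and 11) were 21 and 11 with TMM, 18 and 13 with median-of-ratios factors, and 19 and 10 with a pseudocount of 1 CPM. They were 39 and 23 with a filter of 5 CPM, 6 and 2 with 50 CPM, 958 and 630 with no filter except reads in both libraries, 222 and 141 at 1.5-fold, and 6 and 6 where the near bound of the counting interval had to pass 2-fold. With the span trend subtracted they were 15 and 8, and 14 and 8 of these were among the original genes. The gap exceeded the untreated range in 1141 of 4807 genes with a filter of 50 CPM, and in 4402 to 4475 genes where 1 untreated library was left out, an alternative chosen after seeing the data. The same direction on day 7 held for 100% of the 6 higher and 100% of the 2 lower genes left by the 50 CPM filter. With the 5 CPM filter it held for 82.1% of the 39 higher and 56.5% of the 23 lower genes. All 44 named genes checked kept their sign under the scalings, the trend and the pseudocount. Of 48 list medians, 6 changed sign with the trend subtracted and 6 with the 50 CPM filter (mitotic kinases, topoisomerase I repair, damage response, EMT factors, matrix and annexins), and the scalings changed the sign for the EMT markers and, with median-of-ratios factors, the ABC transporters. Scaling shifted all ratios by -0.01 (TMM) or -0.03 on the log2 scale.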
